A study of Mus musculus with 4 samples.

Results

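The NADPH oxidase and dual oxidase genes were 10 genes chosen by a list of the NOX and DUOX enzymes and their subunits: Nox1, Noxo1, Noxa1, Nox4, Duox1, Duox2, Duoxa1, Duoxa2, Cyba and Cybb. They were 10 of the 53845 rows of the count table, and 9 of them passed the filter on low counts that left 17504 genes for testing. The list was drawn up because some of these genes had low and uneven counts in these libraries, so the values of the 10 genes are given as a description and without p-values.

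The RNA came from small-intestinal crypts, the pits between villi where the stem cells of the gut epithelium sit, of untreated young adult C57BL/6 mice. The study compared 2 wild-type (WT) libraries with 2 Vil-CREPTKO libraries, to learn what loss of CREPT changes in the crypt. In Vil-CREPTKO mice a Cre recombinase driven by the villin promoter deletes a floxed part of Rprd1b, the gene of CREPT, in the gut epithelium from development onwards, so immune and stromal cells in a crypt preparation keep the gene. Crypts were released with EDTA and passed through a strainer, and the study describes the libraries of a genotype as biological replicates. The labels give no ages and do not say whether WT mice carried the floxed alleles or the Cre.

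NADPH oxidases move electrons from NADPH across a membrane to oxygen, making superoxide or hydrogen peroxide. NOX1 is the epithelial enzyme best known from the colon and works with the organizer NOXO1, the activator NOXA1 and the membrane partner p22phox, encoded by Cyba. The phagocyte enzyme, encoded by Cybb, also pairs with p22phox. The dual oxidases DUOX1 and DUOX2 release hydrogen peroxide at the cell surface and need the maturation factors DUOXA1 and DUOXA2 to leave the endoplasmic reticulum, and DUOX2 is known as a peroxide source of the gut epithelium facing microbes.

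Duox2 and Duoxa2 start beside each other, and both had their highest level in WT replicate 2. For Noxa1, both Vil-CREPTKO libraries lay below both WT libraries. The promoter windows of these 3 genes, which have the largest part in the results, are therefore shown. They are RefSeq sequences of build GRCm38.p6 that run from 250 bases before to 50 bases after the RefSeq gene start, which for Duox2 and Noxa1 is not the same base as the GENCODE gene start used for the positions given later. The windows lie at chr2:122298178-122298477 on the minus strand for Duox2, chr2:122298650-122298949 on the plus strand for Duoxa2 and chr2:25095156-25095455 on the minus strand for Noxa1. Capitals mark the matches to the motifs named after them.
Duox2: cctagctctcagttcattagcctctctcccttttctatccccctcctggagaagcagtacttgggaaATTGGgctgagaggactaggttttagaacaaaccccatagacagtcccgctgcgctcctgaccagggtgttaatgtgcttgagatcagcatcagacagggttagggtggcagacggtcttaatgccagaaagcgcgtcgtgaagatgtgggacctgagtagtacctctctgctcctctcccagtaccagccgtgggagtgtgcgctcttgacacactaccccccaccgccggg
Duoxa2: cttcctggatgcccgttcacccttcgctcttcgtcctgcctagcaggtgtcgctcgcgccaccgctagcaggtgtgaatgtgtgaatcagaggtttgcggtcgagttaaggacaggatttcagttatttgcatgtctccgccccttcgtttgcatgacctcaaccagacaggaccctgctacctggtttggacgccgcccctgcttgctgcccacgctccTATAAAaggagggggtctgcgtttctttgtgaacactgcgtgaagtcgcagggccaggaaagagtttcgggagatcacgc
Noxa1: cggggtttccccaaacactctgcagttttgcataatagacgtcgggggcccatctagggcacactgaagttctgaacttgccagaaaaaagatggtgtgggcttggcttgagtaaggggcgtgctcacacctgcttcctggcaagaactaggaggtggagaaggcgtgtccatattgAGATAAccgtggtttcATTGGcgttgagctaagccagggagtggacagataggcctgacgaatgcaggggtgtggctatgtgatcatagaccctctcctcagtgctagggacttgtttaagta

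The windows were searched on both strands for 5 motifs, and no matches overlapped in the windows shown. The TATA box was searched as TATAAA. The box bound by NF-Y was searched as CCAAT. The motif of GATA factors was searched as AGATAA. The motif of STAT factors was searched as TTCNNNGAA, and the motif of TCF factors as CTTTGAT. The Duoxa2 window held TATAAA 30 bases before the start, a motif found in 13.6% of 32851 promoter windows of this length. The Duox2 window held CCAAT on the opposite strand 183 bases before its start, as 37.4% of all windows did at some position. The Noxa1 window held AGATAA 73 bases before the start, against 11.2% of all windows, and CCAAT on the opposite strand 57 bases before it. Of the remaining motifs, TTCNNNGAA was in 8.3% and CTTTGAT in 3.73% of all windows, and neither was in these 3. The windows of Nox1, Noxo1, Duox1 and Duoxa1 held no match to the 5 motifs. These are matches of letters only.

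Total counts ranged from 47241049 to 49369315 per library, and log2 CPM values correlated across genes at 0.982 or higher within a genotype and at 0.971 to 0.979 between genotypes. CPM is the usual count scaled to library size, here after TMM normalization over the tested genes. Rprd1b fell from 61 ± 0.773 CPM in WT to 27.6 ± 1.93 CPM in Vil-CREPTKO (SD, n = 2), so the log2 fold change was -1.14 with an SE of 0.12 (edgeR quasi-likelihood test, adjusted p = 0.0041). WT replicate 2 stood apart: it had 863 CPM of Xist, the RNA of the inactive X chromosome, against 0.299 to 0.529 CPM in the other libraries, and no count of the Y-linked genes Ddx3y, Eif2s3y, Kdm5d and Uty, which summed to 148 to 164 CPM elsewhere. By these markers WT replicate 2 came from a female and the other libraries from males, and the study used mice of both sexes. The sex by markers thus differs between the WT libraries and is the same in both Vil-CREPTKO libraries. Comparisons that rest on WT replicate 2 are therefore also given without it. The epithelial markers summed to between 8655 and 10239.6 CPM in every library. Gata4, which marks the upper small intestine, stood at 203 to 257 CPM, and the colon markers Car1, Hoxd13 and Hoxd12 had no count in any library. The labels give the crypts as the source, and fewer cells of a type and less RNA per cell cannot be told apart in such bulk samples.

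Of the 9 tested oxidase genes, 7 had a negative and 2 a positive log2 fold change of Vil-CREPTKO over WT. Calls required both an adjusted p under 0.05 and a log2 fold change beyond 1 in either direction. Noxa1 was the 1 oxidase gene called lower, where 1.34% of all tested genes were, and 0 of the 9 were called higher by edgeR or DESeq2, where 0.297% of all tested genes were by edgeR. At any fold change 2.71% of tested genes had an adjusted p under 0.05. An unadjusted p under 0.05 was given by edgeR to 2495 of the 17504 tested genes. Both Vil-CREPTKO libraries lay below both WT libraries for 3 of the 9, Noxo1, Noxa1 and Duoxa2, as they did for 24.2% of all tested genes. They lay above for 0 of the 9, against 21% of all tested genes. With 2 libraries per group, an exact permutation test of a single gene cannot go below a two-sided p of 0.333.

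**Figure D1:**
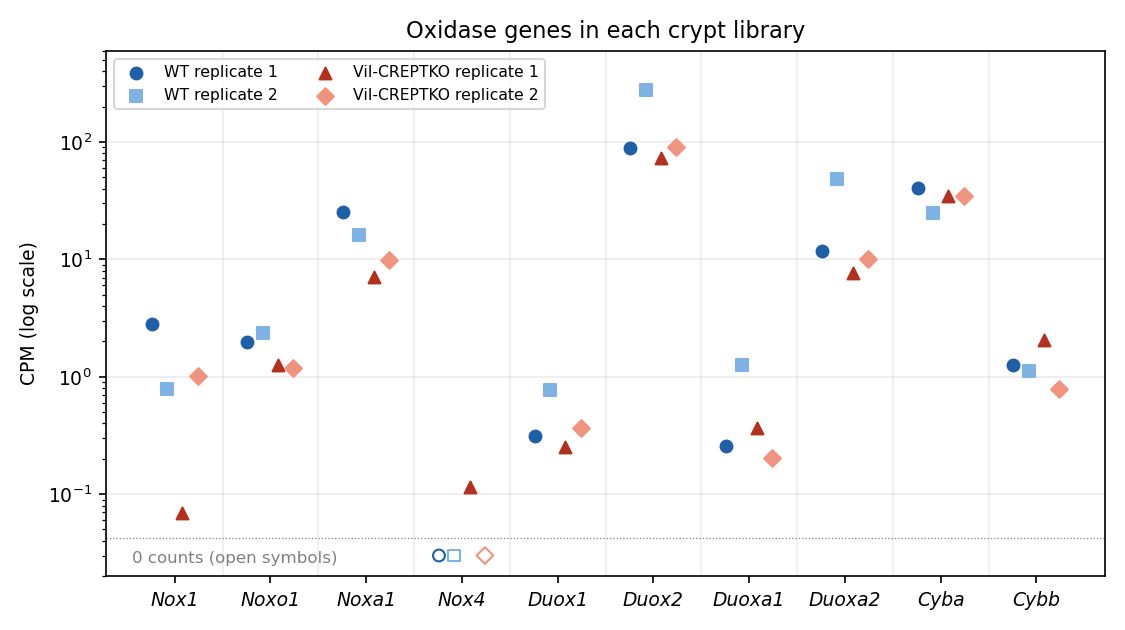
Levels of the 10 oxidase genes in each of the 4 libraries, in CPM on a log axis, with WT and Vil-CREPTKO libraries as separate points and open symbols under the dotted line for libraries with no count. Duox2 was the highest in every library, Nox1 was spread from 0.069 to 2.84 CPM, and the dual oxidase genes had their highest point in WT replicate 2.

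The order of the levels was set per length, as CPM per kilobase of the principal transcript, averaged over the 4 libraries. Cyba, the p22phox gene, came first at 45.5 CPM per kilobase (range 33.7 to 54.6), followed by Duox2 at 23.1 (12.7 to 48.5), Duoxa2 at 12.1 (4.8 to 30.2) and Noxa1 at 9.04 (4.41 to 15.7). The other 6 genes were under 1 CPM per kilobase on average. Among them Noxo1 stood at 0.758, Nox1 at 0.46, Duoxa1 at 0.346, Cybb at 0.274, Duox1 at 0.0809 and Nox4 at 0.00766 CPM per kilobase. Neighbours in this order overlapped in their ranges except that every Noxa1 value lay above every Noxo1 value, every Cybb value above every Duox1 value and every Duox1 value above every Nox4 value. When the union of all annotated exons was used as the length, Duoxa1 at 0.131 CPM per kilobase fell below Cybb at 0.224. In these crypts the oxidase transcripts thus consisted mainly of the shared membrane partner Cyba and of Duox2 with Duoxa2, with Noxa1 next.

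Nox1, the catalytic subunit of the epithelial complex (ENSMUSG00000031257, chromosome X, 134086421 to 134221956, minus strand), showed 145 and 39 counts in WT against 3 and 50 in Vil-CREPTKO. The genotypes overlapped, because Vil-CREPTKO replicate 2 lay above WT replicate 2. In CPM these were 2.84 and 0.792 in WT against 0.069 and 1.02 in Vil-CREPTKO, a mean of 1.82 ± 1.45 against 0.544 ± 0.671 (SD, n = 2). The log2 fold change was -1.72 with an SE of 0.92. The spread lay within the genotypes: Vil-CREPTKO replicate 2 had 14.8 times the CPM of replicate 1, with a 95% interval from counting error alone of 4.77 to 73.9. The 3 counts of Vil-CREPTKO replicate 1 have an exact Poisson interval of 0.619 to 8.77 counts. The fitted biological coefficient of variation of Nox1 was 0.629, higher than that of 99.3% of tested genes and against 0.188 over all genes. Left out in turn, the libraries moved the log2 fold change of Nox1 from -0.53 without WT replicate 1 to -4.66 without Vil-CREPTKO replicate 2. In total 399 bases, 12.1% of the exon bases of Nox1, overlap Cstf2 on the opposite strand, and Cstf2 itself had a log2 fold change of 0.02.

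The log2 CPM pattern of Nox1 across the 4 libraries, centred on its mean, was most like those of Map9, Kcnmb2 and Vmo1 among 13109 protein-coding genes. Their root mean square differences from Nox1 were 0.42, 0.542 and 0.581 on the log2 scale, so even the nearest gene was not close. Map9 had 50 and 20 counts in WT against 2 and 30 in Vil-CREPTKO. Kcnmb2 and Vmo1 also had their lowest count, 0 and 1, in Vil-CREPTKO replicate 1. Map9, Kcnmb2 and Vmo1 also shared with Nox1 a highest count in WT replicate 1. The 4 libraries are few for such a likeness.

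Noxa1, the activator subunit (ENSMUSG00000036805, chromosome 2, 25085667 to 25095149, minus strand), showed 1292 and 791 counts in WT against 310 and 488 in Vil-CREPTKO. The genotypes did not overlap, and each of the 4 libraries had over 300 counts, so counting error was small beside the spread between libraries. The levels were 25.3 and 16.1 CPM in WT against 7.13 and 9.94 in Vil-CREPTKO, a mean of 20.7 ± 6.53 against 8.54 ± 1.98 CPM (SD, n = 2). Vil-CREPTKO was thus at 41.3% of WT, a log2 fold change of -1.28 with an SE of 0.25. Its coefficient of variation of 0.192 was close to the 0.188 of all genes. Without a library in turn the log2 fold change ranged from -0.91 without WT replicate 1 to -1.57 without WT replicate 2, and the call was lost without WT replicate 1, without Vil-CREPTKO replicate 1 and with upper-quartile scaling. Its exons share 50 bases, 3.09% of their length, with Entpd8 on the opposite strand, which also fell, from 107 ± 7.51 to 60 ± 12.2 CPM (edgeR log2 fold change -0.83 with an SE of 0.15, adjusted p = 0.0288).

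Noxo1, the organizer subunit (ENSMUSG00000019320, chromosome 17, 24696234 to 24700529, plus strand), showed 100 and 117 counts in WT against 55 and 58 in Vil-CREPTKO. Both pairs were tight and did not overlap. The means were 2.17 ± 0.296 and 1.22 ± 0.0596 CPM (SD, n = 2), so the log2 fold change was -0.82 with an SE of 0.34. Most of this gene cannot be separated from its neighbour, since 70.4% of its exon bases overlap Tbl3 on the opposite strand and the strand setting of the counting is not given in the sources used here. Tbl3, which encodes a nucleolar protein, had 1929 and 2119 counts in WT against 902 and 1093 in Vil-CREPTKO. It fell with a log2 fold change of -0.91 with an SE of 0.13 (edgeR adjusted p = 0.0114). The fall of Tbl3 thus ran beside the lower values of Noxo1, and its part in them was not tested. Per length Noxa1 exceeded Noxo1 in every library, by 17.9 and 9.36 times in WT and by 7.8 and 11.6 times in Vil-CREPTKO.

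Nox4, an oxidase known from kidney and fibroblasts that makes hydrogen peroxide (ENSMUSG00000030562, chromosome 7, 87246096 to 87398710, plus strand), showed no count in 3 libraries and 5 counts in Vil-CREPTKO replicate 1. A count of 0 had an exact 95% Poisson interval up to 3.69 counts, or 0.0723 to 0.0751 CPM in those libraries. The level was 0.115 CPM where Nox4 was seen. The exact Poisson interval of the 5 counts was 1.62 to 11.7, and the ratio of Vil-CREPTKO replicate 2 to replicate 1 was 0 with a 95% interval from counting error of 0 to 0.966, whose upper end is just under 1. In the same library the 6 fibroblast markers Col1a1, Col1a2, Col3a1, Dcn, Lum and Pdgfra summed to 17.6 CPM, against 5.13 and 5.83 CPM in WT and 2.04 CPM in Vil-CREPTKO replicate 2, where Lum and Pdgfra had no count. The part of stromal cells in the Nox4 counts was not tested.

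The 4 dual oxidase genes lie side by side on chromosome 2 as 2 divergent pairs, each an oxidase with its maturation factor. Duox2 (ENSMUSG00000068452, 122279247 to 122298449, minus strand) and Duoxa2 (ENSMUSG00000027225, 122298900 to 122302885, plus strand) start 451 bases apart in GENCODE. The starts of Duoxa1 (ENSMUSG00000027224, 122302191 to 122313730, minus strand) and Duox1 (ENSMUSG00000033268, 122315672 to 122347972, plus strand) are 1942 bases apart. Duoxa2 and Duoxa1 meet tail to tail and overlap by 695 bases.

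Duox2 had 4521 and 13699 counts in WT against 3165 and 4487 in Vil-CREPTKO. WT replicate 2 stood above the other 3 libraries, and WT replicate 1 lay below Vil-CREPTKO replicate 2 in CPM, so the genotypes overlapped. The levels were 88.6 and 278 CPM in WT against 72.8 and 91.4 in Vil-CREPTKO, with means of 183 ± 134 and 82.1 ± 13.1 CPM (SD, n = 2), and the log2 fold change was -1.16 (SE 0.42). Without WT replicate 2 the log2 fold change was -0.11, and without WT replicate 1 it was -1.76. The lower mean of Duox2 in Vil-CREPTKO therefore rested on the high value of WT replicate 2.

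Duoxa2 had 596 and 2364 counts in WT against 332 and 491 in Vil-CREPTKO, or 11.7, 48, 7.64 and 10 CPM. Both Vil-CREPTKO libraries lay below both WT libraries, by a small margin from WT replicate 1. The mean went from 29.9 ± 25.7 to 8.82 ± 1.67 CPM (SD, n = 2), so the log2 fold change was -1.76 (SE 0.52). Without WT replicate 2 it was -0.40 and without WT replicate 1 it was -2.44, so the size of the difference again rested on WT replicate 2. Overlap with Duoxa1 covers 42.8% of the exon bases of Duoxa2, but Duoxa1 had few counts.

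Duoxa1 had 13 and 62 counts in WT against 16 and 10 in Vil-CREPTKO. The genotypes overlapped, with WT replicate 1 between the Vil-CREPTKO libraries in CPM. The log2 fold change of -1.40 (SE 0.79) became 0.16 without WT replicate 2. The overlap with Duoxa2 covers 17.1% of its exon bases, so some of these few counts may belong to either gene. Duox1 had 16 and 38 counts in WT against 11 and 18 in Vil-CREPTKO, or 0.313, 0.772, 0.253 and 0.367 CPM, and overlapped between genotypes. Its log2 fold change of -0.80 (SE 0.66) became -0.01 without WT replicate 2.

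Within WT, replicate 2 exceeded replicate 1 by 3.14 times for Duox2 (95% interval from counting error 3.04 to 3.25), by 4.11 times for Duoxa2 (3.76 to 4.51) and by 4.95 times for Duoxa1 (2.69 to 9.81). The ratio for Duox1 was 2.46 (1.34 to 4.73). The 4 genes of the locus were thus all higher in the same WT library. In size these WT differences exceeded those of 97.6% of tested genes for Duox2, 98.7% for Duoxa2, 98.9% for Duoxa1 and 94.7% for Duox1. The Duoxa1 value is not fully separate, since 17.1% of its exon bases overlap Duoxa2 and the strand setting is not given. Between the Vil-CREPTKO libraries the ratios of replicate 2 to replicate 1 were 1.25 for Duox2, 1.31 for Duoxa2 and 1.45 for Duox1 (0.648 to 3.39), and Duoxa1 ran the other way at 0.553 (0.224 to 1.3). WT replicate 2 is also the library with Xist and without Y-linked counts, and the part of that difference in the dual oxidase levels was not tested.

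**Figure D2:**
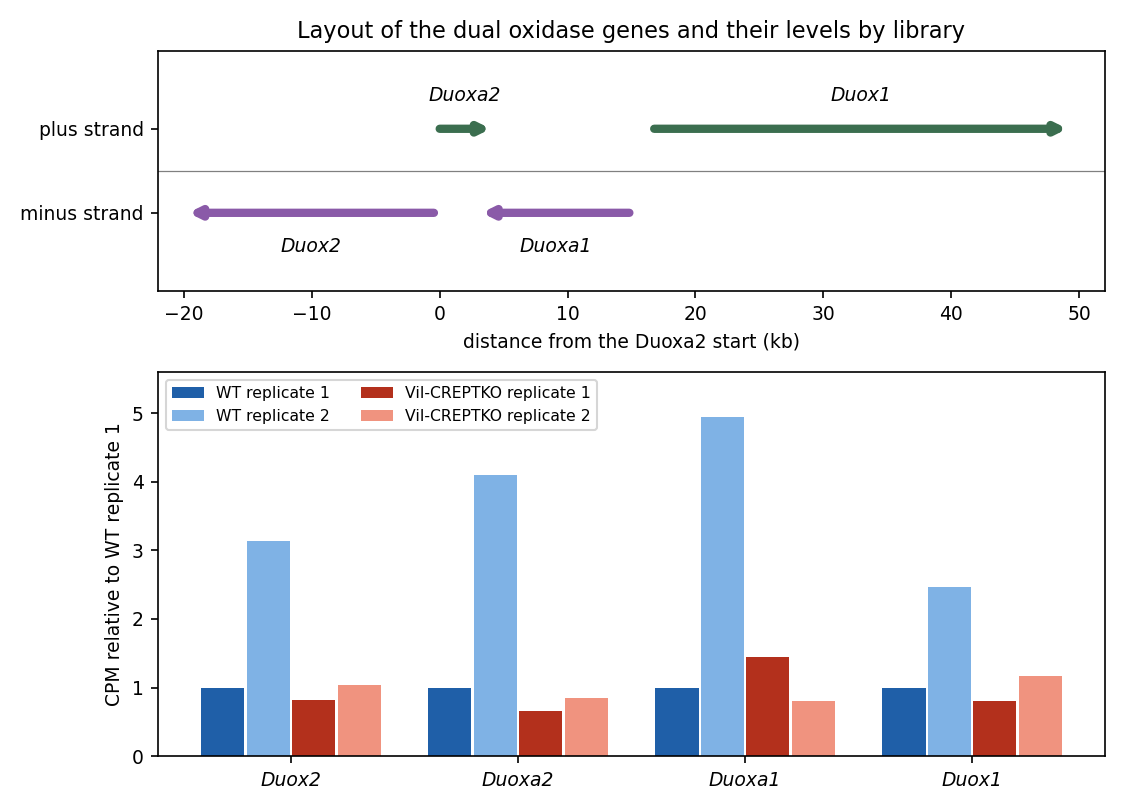
Gene positions at the dual oxidase locus as distance in kilobases from the Duoxa2 start, and the CPM of each of the 4 genes relative to WT replicate 1 in each library (bars). WT replicate 2 was above the other libraries for all 4 genes, by 4.94 times over WT replicate 1 for Duoxa1 and 4.1 times for Duoxa2, while both Vil-CREPTKO libraries stayed between 0.653 and 1.44.

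The ratio of maturation factor to oxidase in the Duox2 pair varied less than the level of either gene. Per length, the Duoxa2 level was 0.476 and 0.623 times that of Duox2 in the WT libraries and 0.378 and 0.395 times in the Vil-CREPTKO libraries. The 2 Vil-CREPTKO ratios lay below both WT ratios. Duox2 exceeded Duox1 per length by 229 to 331 times in the 4 libraries. Duox2 and Duoxa2 were therefore the dual oxidase pair of these crypts by level, and Duox1 and Duoxa1 had at most 62 counts in a library.

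The centred log2 CPM pattern of Duox2 was most like those of Ciita, the transactivator of MHC class II genes, of Igtp, an interferon-inducible GTPase gene, and of Sync. The root mean square differences were 0.0967, 0.128 and 0.209 on the log2 scale over 4 libraries. Ciita had 459 and 1243 counts in WT against 297 and 378 in Vil-CREPTKO. Igtp had 759 and 2608 counts in WT against 596 and 968 in Vil-CREPTKO. Like Duox2 they had their highest count in WT replicate 2, and the likeness is a description of 4 libraries.

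Cyba, the membrane partner of several NOX enzymes (ENSMUSG00000006519, chromosome 8, 122424776 to 122432930, minus strand), showed 2073 and 1233 counts in WT against 1512 and 1721 in Vil-CREPTKO. Both Vil-CREPTKO values lay between the WT values. The means were 32.8 ± 11 and 34.9 ± 0.183 CPM (SD, n = 2), and the log2 fold change of 0.09 (SE 0.21) became -0.02 with scaling by library size, 0.48 without WT replicate 1 and -0.22 without WT replicate 2. Cyba thus did not differ beyond the spread between the WT libraries.

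Cybb, the catalytic subunit of the phagocyte oxidase (ENSMUSG00000015340, chromosome X, 9435252 to 9487771, minus strand), showed 64 and 55 counts in WT against 89 and 39 in Vil-CREPTKO. The WT values lay between the Vil-CREPTKO values. Its means were 1.19 ± 0.0963 and 1.42 ± 0.886 CPM (SD, n = 2). The log2 fold change of 0.26 (SE 0.49) became -0.58 without Vil-CREPTKO replicate 1, the highest library, and 0.79 when replicate 2 was left out in its place. Vil-CREPTKO replicate 1 also had the highest sum of the 8 macrophage and monocyte markers, with 36.8 CPM there, 13.1 CPM in replicate 2 and 18.5 and 14.8 CPM in WT. Itgam ran the other way, with 3.68 and 3.29 CPM in WT against 2.35 and 2.3 in Vil-CREPTKO. All 8 of these markers had counts in every library. Among the 7 tested, edgeR gave 0 with an adjusted p under 0.05 and 1 with an unadjusted p under 0.05. Over all 17504 tested genes, edgeR gave 2495 with an unadjusted p under 0.05. The neutrophil markers summed to at most 0.881 CPM, and Ly6g had no count in any library. The part of macrophages in the Cybb values was not tested. Per length, Cyba exceeded Cybb by 207 and 143 times in WT and by 109 and 282 times in Vil-CREPTKO.

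The pattern of Cybb was most like those of Dgat2, Nt5e and Entpd1, with root mean square differences of 0.0434, 0.0569 and 0.0666 on the log2 scale over the 4 libraries. Dgat2, which encodes an enzyme of triglyceride synthesis, had 14440 and 12351 counts in WT against 20788 and 9537 in Vil-CREPTKO. Its counts were far above those of Cybb, so the likeness is one of relative pattern only.

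**Figure D3:**
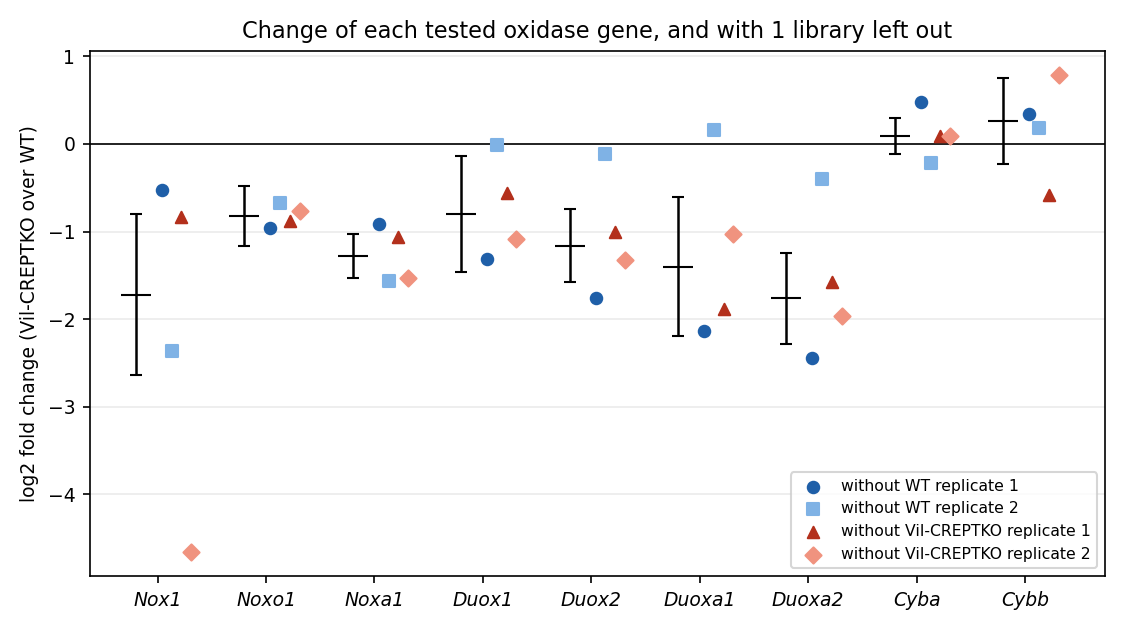
Log2 fold change of Vil-CREPTKO over WT for the 9 tested oxidase genes, with a dash and bar for the value and 1 SE over all libraries and coloured symbols for the value without each library in turn. Noxa1 stayed between -1.57 and -0.91 and Noxo1 between -0.96 and -0.68, Nox1 ran from -0.53 to -4.66, and the values of Duox2, Duox1 and Duoxa1 moved to between -0.11 and 0.16 without WT replicate 2.

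The other proteins that an active oxidase needs were examined through a list of 13 partners and regulators, of which 12 were tested. By edgeR and by DESeq2, 0 of the 12 passed an adjusted p of 0.05. By edgeR 2 of the 12 had an unadjusted p under 0.05, as did 2495 of all 17504 tested genes. The median log2 fold change was -0.15, with 8 negative and 4 positive, beside a median of -0.01 with 8913 negative and 8591 positive over all tested genes. Rac2, a small GTPase that activates the phagocyte oxidase, stood at 29.1 and 35.2 CPM in WT against 24.1 and 22.4 in Vil-CREPTKO. Its log2 fold change was -0.47 (SE 0.15, edgeR adjusted p = 0.165) and the genotypes did not overlap. Ncf4, which encodes p40phox, had 46 and 33 counts in WT against 39 and 13 in Vil-CREPTKO (edgeR log2 fold change -0.44 with an SE of 0.63, adjusted p = 0.822). Nox3, the oxidase of the inner ear, had no count in any library.

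Enzymes that remove superoxide and peroxide were a list of 16, of which 15 were tested. Of these 15, 0 had an adjusted p under 0.05 by edgeR or DESeq2. By edgeR 1 of them had an unadjusted p under 0.05, as did 2495 of all 17504 tested genes. The list had 2 negative and 13 positive log2 fold changes, and its median was 0.19. Prdx1, a peroxiredoxin of the cytosol, stood at 869.5 and 1098 CPM in WT against 1439 and 1208 in Vil-CREPTKO (edgeR log2 fold change 0.43 with an SE of 0.21, adjusted p = 0.421). Prdx4, the peroxiredoxin of the endoplasmic reticulum, stood at 37.2 and 37 CPM in WT against 22 and 33.2 in Vil-CREPTKO (edgeR log2 fold change -0.43 with an SE of 0.19, adjusted p = 0.352). No single gene of the list passed the test in either direction.

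Peroxidases that use hydrogen peroxide and channels that carry it were a list of 7, of which 3 were tested, and 0 of these passed an adjusted p of 0.05 by edgeR or DESeq2 or had an unadjusted p under 0.05 by edgeR. Lactoperoxidase (Lpo) had no count in any library. Aqp8, a channel that passes hydrogen peroxide, stood at 0.823 and 0.65 CPM in WT against 0.69 and 1.57 in Vil-CREPTKO (edgeR log2 fold change 0.62 with an SE of 0.51, adjusted p = 0.663). Pxdn, peroxidasin of the basement membrane, stood at 8.03 and 1.48 CPM in WT against 5.25 and 8.94 in Vil-CREPTKO (edgeR log2 fold change 0.58 with an SE of 0.61, adjusted p = 0.745).

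Transcription factors active in the gut epithelium were a list of 7, all tested. Among the 7, 0 passed an adjusted p of 0.05 by edgeR or DESeq2, and their median log2 fold change was -0.10. By edgeR 1 of them had an unadjusted p under 0.05, as did 2495 of all 17504 tested genes.

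Genes known to respond to microbes together with Duox2 in the gut were a list of 7, of which 4 were tested. Reg3b, which encodes an antimicrobial lectin, was the 1 gene of the list with an adjusted p under 0.05, by both edgeR and DESeq2. It stood at 1007 and 1079 CPM in WT against 4035 and 2040.1 in Vil-CREPTKO. It rose with a log2 fold change of 1.54 with an SE of 0.32 (edgeR adjusted p = 0.0459), and without Vil-CREPTKO replicate 1 the value was 0.96 with an adjusted p of 0.0979. Reg3b also missed the threshold with RLE scaling (edgeR adjusted p = 0.055), with upper-quartile scaling (0.0538) and with a replicate block (0.114). The other antimicrobial lectin of the list, Reg3g, named after its values were seen, had a log2 fold change of 1.64 with an SE of 0.37 (edgeR adjusted p = 0.0577). Reg3b was higher in both Vil-CREPTKO libraries, and Duox2 and Duoxa2 had lower means there. The high Duox2 value of WT replicate 2 had no counterpart in Reg3b. The part of microbes in the Duox2 and Reg3b values was not tested.

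**Figure D4:**
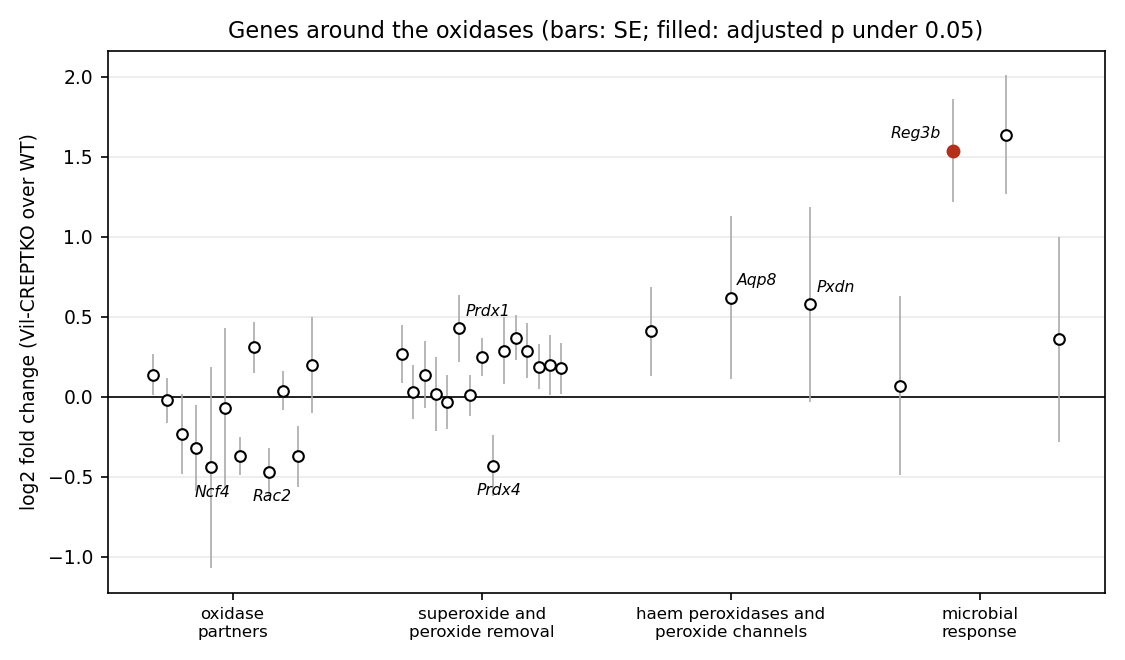
Log2 fold change of Vil-CREPTKO over WT for each tested gene of 4 pathway lists (partners, removal enzymes, peroxidases with channels, and microbial response genes), with 1 circle per gene, bars of 1 SE, and a filled circle where the edgeR adjusted p was under 0.05. Reg3b at 1.54 is the filled circle, the removal enzymes lie mostly above 0 with Prdx4 at -0.43, and Rac2 at -0.47 is the lowest of the oxidase partners.

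The crypt cell markers gave the setting of these values. Summed levels in the WT and Vil-CREPTKO libraries were 1536 to 1931 and 1273 to 1817 CPM for crypt base markers, 11037 to 15058 and 13959.8 to 15356 CPM for Paneth cell markers, and 6643 to 7212 and 5296 to 5665 CPM for goblet cell markers. Of these 3 sums, the goblet cell one did not overlap between genotypes. Markers of proximal small intestine summed to 582 to 728 CPM in WT and 724 to 756 CPM in Vil-CREPTKO, those of distal small intestine to 148 to 198 and 176 to 202 CPM, and the 6 colon markers found in the table to 156 to 162 and 190.4 to 223 CPM. T cell markers summed to 123 to 179 and 99.4 to 128 CPM, and B and plasma cell markers to 14.3 to 15.4 and 20.1 to 32 CPM. Endothelial markers reached at most 3.37 CPM and smooth muscle markers at most 0.752 CPM. The colon and the B and plasma cell sums, higher in Vil-CREPTKO, and the smooth muscle sum, lower there, also did not overlap. Among single tested genes, both Vil-CREPTKO libraries lay below both WT libraries for 24.2% and above them for 21%. By edgeR, 0 tested genes of any marker list had an adjusted p under 0.05, and by unadjusted p under 0.05 no list had more than 2 such genes. Over all 17504 tested genes, 2495 had an unadjusted p under 0.05 by edgeR. The part of these cell types in the oxidase values was not tested.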

How the data were processed

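Total RNA was extracted with Trizol from small-intestinal crypts and sequenced as 2 WT and 2 Vil-CREPTKO libraries. Per the methods and the submitters' processing notes, the authors mapped clean reads to reference transcripts of GRCm38.p6 with Bowtie2 and estimated expression with RSEM (CASAVA 1.8 was also named). The deposited values are whole-number read counts per Ensembl gene, 1 column per library. The step that gave whole numbers and the strand setting are not given in the sources used here, and reads of overlapping genes may have gone to either gene.

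The sample titles gave the genotype and the replicate number. Of 53845 rows, 53274 (98.9%) matched GENCODE M21, from which symbols, positions and lengths were taken, and 380 unnamed loci held 0.178% to 0.247% of the counts. Counts were tested in R 4.3.3 with edgeR 4.0.16 (filterByExpr, TMM, quasi-likelihood F-test, two-sided, genotype as the only term), with Benjamini-Hochberg adjustment over all 17504 genes. SE is the log2 fold change divided by the square root of F. The script was tested on simulated data. DESeq2 1.42.0, other scalings and filters, a replicate block and leaving out each library were alternatives. The chi-square between libraries of a genotype (49.8 per gene in WT and 70.1 in Vil-CREPTKO) was above that of repeat counts of 1 library, which bears only on whether a library was deposited more than once. Same-numbered libraries did not deviate together (correlation 0.0277). Intervals (95% Poisson or binomial) cover counting error only.

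The 10 genes and the lists of partners, removal enzymes, peroxidases, transcription factors, microbial response genes and cell markers were chosen with earlier results of these data known. In each pathway list the genes with an adjusted p under 0.05 were named, or otherwise the 2 with the largest absolute log2 fold change. Some of the genes this rule named are not reported here. For Nox1, Duox2 and Cybb, the 3 protein-coding genes with the nearest centred log2 CPM pattern (prior count 2) were named. Promoter windows of all 10 genes were matched in RefSeq (GRCm38.p6).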

Additional observations from a re-analysis of the deposited data

How the results depend on the processing

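The number of genes called over the whole table, 287, went to 447 with library-size scaling (median log2 fold change of all tested genes -0.10 in place of -0.01), to 613 with no filter on low counts and to 474 with no fold change threshold. It was 229 with upper-quartile scaling, 253 with RLE scaling, 288 with at least 10 counts in every library and 396 with DESeq2, and lay between 312 and 429 when 1 library was left out. Of the oxidase genes, Noxa1 was the 1 called, also with DESeq2, RLE scaling, at least 10 counts in every library and no fold change threshold. The count was 0 with upper-quartile scaling, 2 (Noxa1 and Duoxa2) with library-size scaling and 4 (Nox1, Noxa1, Duox2 and Duoxa2) with no filter. When 1 library was left out, it ranged from 0 to 2. The calls were Duox2 and Duoxa2 without WT replicate 1, Noxa1 without WT replicate 2, 0 genes without Vil-CREPTKO replicate 1, and Nox1 and Noxa1 without Vil-CREPTKO replicate 2. Apart from leaving out libraries, the log2 fold change of Noxa1 lay between -1.37 and -1.25, that of Noxo1 between -0.91 and -0.79, that of Nox1 between -1.86 and -1.70, that of Duox2 between -1.22 and -0.95 and that of Duoxa2 between -1.81 and -1.46. Nox1 had no value with at least 10 counts in every library. The partner and removal lists had 0 calls under each of the 12 alternatives. Of 110 values of single pathway genes and Rprd1b under alternatives, 101 kept their direction and their side of the threshold. When 1 library was left out, the log2 fold change of Ncf4 ranged from -1.56 to 0.20, that of Aqp8 from -0.09 to 1.08 (both turning sign without Vil-CREPTKO replicate 2) and that of Pxdn from -0.18 to 2.26 (turning sign without WT replicate 2, and with an edgeR adjusted p = 0.00246 without WT replicate 1). Prdx4 passed without Vil-CREPTKO replicate 2 (-0.75, edgeR adjusted p = 0.0263). Reg3b missed the threshold with RLE scaling (edgeR adjusted p = 0.055), with upper-quartile scaling (0.0538) and without Vil-CREPTKO replicate 1 (0.0979). The cause of these changes was not tested.

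With a replicate block, which treats same-numbered libraries as pairs although nothing in the labels or the deviations pairs them, 336 genes were called, 2 of them oxidase genes (Noxa1 and Duoxa2), and Reg3b had an edgeR adjusted p of 0.114. Depth limits Nox4, Duox1, Duoxa1, Cybb and Nox1, which had under 100 counts in 3 or more libraries. Where a library is left out, the lone library of its genotype is assumed to vary like the other genotype.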
